A study of Arabidopsis thaliana with 4 samples.

Results

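BGLU25 (AT3G03640, chromosome 3) and BGLU40 (AT1G26560, chromosome 1) are a pair of Arabidopsis thaliana genes named as beta-glucosidases, and each was measured by a single probe set, 259173_at and 261016_at. They were found as the probe sets whose only gene in the platform annotation is BGLU25 or BGLU40, which gave 2 of 22746 plant probe sets. The pair was selected on its log2 wounding differences in these arrays, which were known beforehand, so its values are a description, with no test. The other BGLU-named genes serve as background.

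Expression was measured in leaves on Affymetrix ATH1 arrays, which read a transcript with a probe set, a group of short oligonucleotides. The 4 groups, with 1 array each, were wt control, wt after systemic wounding, opr3 control and opr3 after systemic wounding. All plants were 6 weeks old and grown under short days at 21 °C. In the wounded groups some rosette leaves were clamped across the midvein with tweezers, and 2 h later RNA was taken from leaves of the same plants that had not been clamped. The labels name no other agent for any group. The treatment note for wounded opr3 names WT plants, whereas its title gives opr3, and the title was followed. The allele and accession background of opr3, and how many plants stand behind an array, are not given in the sources used here. OPR3 itself had no named probe set, so its level was not analysed here.

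Beta-glucosidases of glycoside hydrolase family 1, to which the BGLU genes belong, cut glucose from small molecules that plants store as inactive glucosides. The family includes enzymes that release abscisic acid from its glucose ester, monolignols and coumarins from their glucosides, and, as myrosinases, toxic products from glucosinolates. Members of one branch are kept in ER bodies, compartments of the endoplasmic reticulum, and meet their substrates when tissue is damaged. OPR3 reduces 12-oxophytodienoic acid on the way to jasmonic acid, the hormone that carries much of the wound response of leaves. The design therefore sets wound-responsive transcripts of wt plants beside those of opr3 plants. Whether these opr3 plants lacked the step was not measured here.

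Levels are given as log2 expression, with 1 value per probe set. To leave out transcripts near background, only the 14612 probe sets that reached 4.73, the 40th percentile of the whole table, on at least 1 array were kept. A difference of 2-fold (1 on the log2 scale) between arrays was taken as the limit for calling a probe set higher or lower. With 1 array per group no difference has a replicate check. The 5 leaf markers with a named probe set, of 15 listed (LHCB4.1, LHCB4.2, RCA, PRK and SBPASE), lay between 11.64 and 13.57 in every array, and none differed by 2-fold in any comparison. The root markers PYK10 and EXPA7, which were the named ones of 8 listed, stayed under 4.73 in all 4 arrays. The guard cell gene FMA, the named one of 4 markers of myrosin and guard cells, lay between 6.06 and 6.45. No marker of flower, seed, phloem, xylem or trichome and epidermis was named. The wt wounded array stood apart in its controls and in plastid transcripts. The median log2 level over 69 plastid-encoded probe sets was 9.95 in it and at least 10.70 in each of the others. For the bacterial RNAs added as controls, the 5' signal minus the 3' signal averaged -2.0 (log2, 8 pairs of probe sets), and it averaged -1.16 to -1.29 in the other arrays. The corresponding mean over 5 pairs for Arabidopsis transcripts was -0.63 in that array and -0.37 to -0.51 in the others. Its part in the wt values below was not tested, and the response in opr3 does not use that array. Leaf RNA of this kind mixes all cell types, so a change in RNA per cell and a change in the number of expressing cells cannot be told apart.

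BGLU25 was higher after systemic wounding by nearly the same amount in both lines. Its log2 level was 6.31 in wt control, 8.33 in wt wounded, 6.29 in opr3 control and 8.37 in opr3 wounded. Both wounded arrays were high, both control arrays were low, and the lines lay side by side within each treatment. In wt the difference was 2.02 on the log2 scale, a 4.05-fold higher level, which ranked 136 from the highest of 14612 probe sets. In opr3 it was 2.08, a 4.22-fold higher level, which ranked 139. At least 2-fold higher in the wt response were 3.94% of all probe sets and lower 1.79%, and in the opr3 response 4.85% and 1.68%. BGLU25 and BGLU40 were both among the higher ones in each line. They were selected on these responses, so nothing is read from the ranks or the shares.

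Between the lines BGLU25 showed little difference. The level in opr3 relative to wt was -0.02 in control plants and 0.04 in wounded plants, both on the log2 scale. Of 14612 probe sets, 13470 had a larger difference in size between the control arrays and 12764 between the wounded arrays. The response in opr3 minus that in wt was 0.06. In the group of 350 probe sets that passed 2-fold upward in both lines, 54 (15.4%) likewise had responses within 0.1 of each other. With single arrays a small difference does not show that the lines respond alike.

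BGLU40 was also higher after wounding in both lines, and by more in opr3. Its log2 level was 6.69 in wt control, 9.47 in wt wounded, 6.14 in opr3 control and 10.28 in opr3 wounded. From lowest to highest the order was opr3 control, wt control, wt wounded and opr3 wounded, so opr3 held both the lowest and the highest level. The wounding difference was 2.78 in wt, a 6.87-fold higher level, which ranked 59 from the highest of 14612 probe sets. In opr3 it was 4.14, a 17.7-fold higher level, which ranked 15 among all probe sets and 8 among the 7984 with 1 named gene. Among those named probe sets its wt response ranked 28. Both values lie outside the central 95% of differences, which ran from -0.92 to 1.34 in wt and from -0.89 to 1.40 in opr3. BGLU40 was selected on these responses, so nothing is read from its ranks or from this position. No level of either gene was near the filter level or the top of the scale, since the lowest was 6.14 and the arrays reached 13.74.

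The larger BGLU40 response in opr3 was made up of a lower start and a higher end. In control plants opr3 was lower than wt by a log2 difference of -0.55, a 1.47-fold difference. This falls just inside the central 95% of differences between the control arrays, -0.56 to 0.46, and 646 of 14612 probe sets (4.42%) differed more in size. In wounded plants opr3 was higher than wt by 0.81, a 1.75-fold difference, just outside the central range of -0.76 to 0.79, and 660 probe sets (4.52%) differed more in size. Neither difference reached the 2-fold limit. That limit was passed by 0.417% of probe sets upward and 0.575% downward in control plants, and by 1.33% upward and 1.66% downward in wounded plants. Together they gave a response 2.57-fold larger in opr3, at 1.36 on the log2 scale, which ranked 150 from the highest. The central 95% for this quantity ran from -0.74 to 0.93, and the 2-fold limit was passed in it by 2.07% upward and 1.32% downward. It is built from the responses used for the selection, and the -0.55 and the 0.81 are its parts. The rank, shares and positions given for all of these are therefore a description only. In that group of 350 probe sets upward in both lines, 30 (8.57%) had a response at least 2-fold larger in opr3 and 24 (6.86%) one at least 2-fold smaller. BGLU40 belongs to the former group and BGLU25 to the remaining 296. The wt wounded array enters the 0.81 and the 1.36, whereas the -0.55 does not use it.

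**Figure D1:**
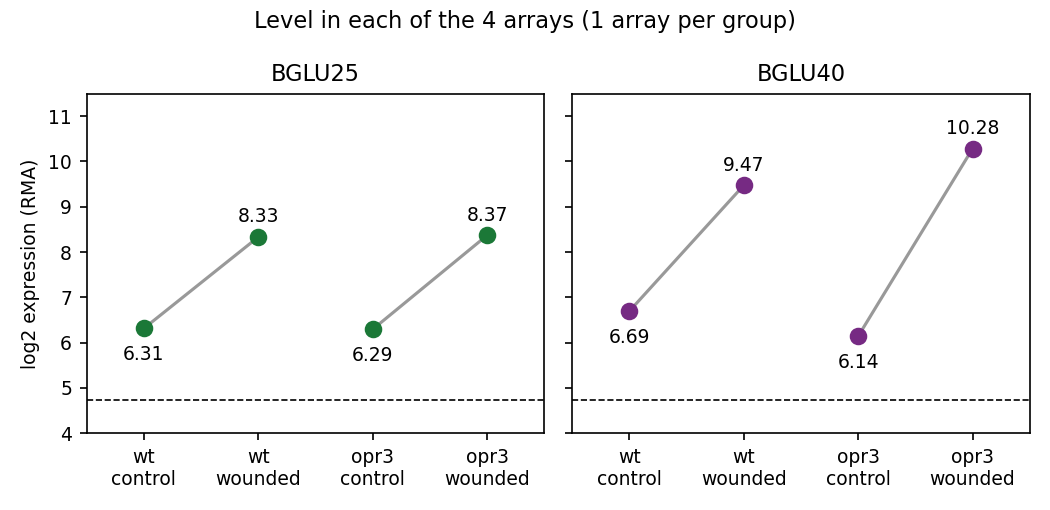
Log2 expression (vertical axis) of BGLU25 and BGLU40 in each of the 4 arrays, with 1 point per array, lines joining control and wounded within a genotype, and a dashed line at the filter level of 4.73. BGLU25 goes from 6.31 to 8.33 in wt and from 6.29 to 8.37 in opr3, and BGLU40 from 6.69 to 9.47 and from 6.14 to 10.28. Heights are not comparable between the panels, which show different probe sets.

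Set beside each other, the genes differed more in opr3 than in wt. The BGLU40 response exceeded that of BGLU25 by 0.76 on the log2 scale in wt and by 2.07 in opr3. In the plot of opr3 against wt responses BGLU25 sits on the line of equal response, and BGLU40 lies above it. Both are separate from the other BGLU genes that passed the filter, which lie around the origin.

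**Figure D2:**
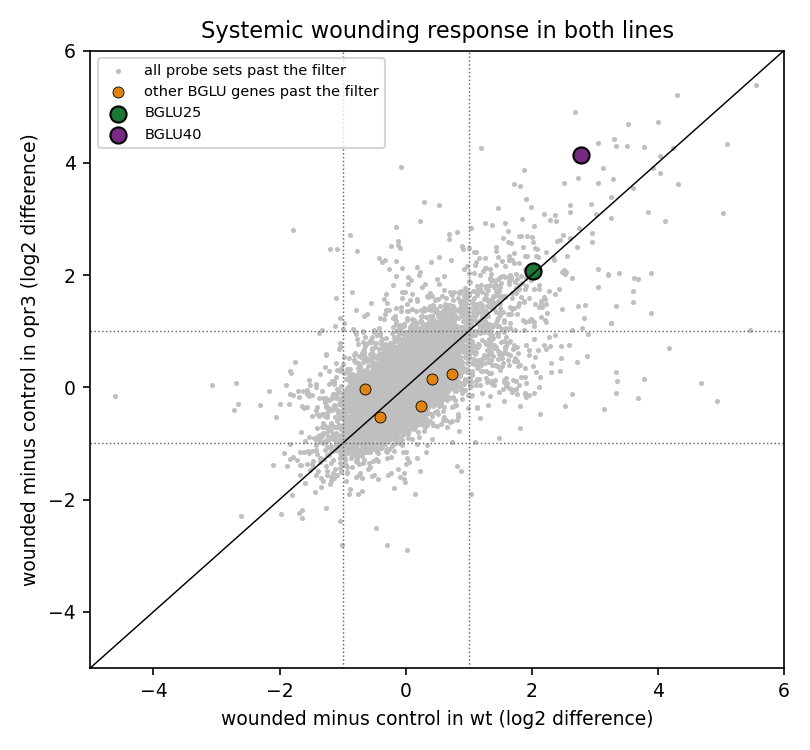
Wounded minus control log2 difference in wt (horizontal axis) against that in opr3 (vertical axis) for the 14612 probe sets past the filter in grey, with BGLU25, BGLU40 and the 5 other BGLU genes past the filter marked, the diagonal of equal response and dotted lines at 2-fold. BGLU25 lies at 2.02 and 2.08 and BGLU40 at 2.78 and 4.14.

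Of 40 BGLU-named genes that the TAIR10.1 gene table holds, 20 had a probe set naming them alone, which leaves 18 besides BGLU25 and BGLU40. Of these 18, 13 lay under the filter level in all 4 arrays, so a difference in their transcripts could hardly be seen. The 5 that passed were BGLU15, BGLU16, BGLU33, BGLU42 and BGLU44, and BGLU15 did so only through its level in wounded wt. None of the 18 was at least 2-fold higher or lower in any of the 5 comparisons. Their wounding differences ran from -0.65 to 0.73 in wt, with a median of 0.15 against -0.05 over all probe sets tested. In opr3 they ran from -0.54 to 0.24, with a median of -0.07 against -0.03. With 3.94% and 4.85% of all probe sets at least 2-fold higher in the wt and opr3 responses, a count of 0 among 5 genes past the filter is near the background. BGLU25 and BGLU40 were selected on these responses, so their standing apart from the other BGLU genes is no result about the family.

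BGLU15, whose enzyme acts on flavonol glycosides, was at 4.32 in wt control, 5.05 in wt wounded, 4.37 in opr3 control and 4.61 in opr3 wounded. Its differences of 0.73 in wt and 0.24 in opr3 were the largest upward ones among these genes. BGLU33, a vacuolar enzyme that hydrolyses the glucose ester of abscisic acid, was at 7.83 in wt control, 7.19 in wt wounded, 7.55 in opr3 control and 7.52 in opr3 wounded. Its highest and its lowest level were both in wt arrays, with the opr3 arrays between them, and its difference was -0.65 in wt and -0.03 in opr3. BGLU42, known from roots for the release of iron-mobilising coumarins, had differences of 0.41 and 0.14.

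BGLU44 was at 9.69 in wt control, 9.28 in wt wounded, 9.58 in opr3 control and 9.05 in opr3 wounded, which made it lower after wounding in both lines, by differences of -0.41 and -0.54. BGLU16 was at 9.24 in wt control, 9.49 in wt wounded, 9.08 in opr3 control and 8.75 in opr3 wounded. Its differences had opposite signs, 0.24 in wt and -0.33 in opr3, both under the limit. BGLU43 had a difference of -0.40 in opr3, at levels under the filter. The smallest differences were those of BGLU28, BGLU27 and BGLU29 in wt, from -0.06 to -0.03, and of BGLU41, BGLU36 and BGLU31 in opr3, at 0.01 each, all 6 under the filter level. BGLU45 and BGLU46, which act on monolignol glucosides, stayed under the filter level too.

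The difference of the responses, opr3 minus wt, was below 0 for 16 of the 18 other BGLU genes, with a median of -0.19 against 0.03 over all probe sets tested. BGLU33 at 0.62 and BGLU36 at 0.22 were the exceptions. BGLU40 at 1.36 lay above all 18, and BGLU25 at 0.06 above 16 of them. Since 13 of these genes were near background and all share the wt wounded array, the shared sign is given as a description only.

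**Figure D3:**
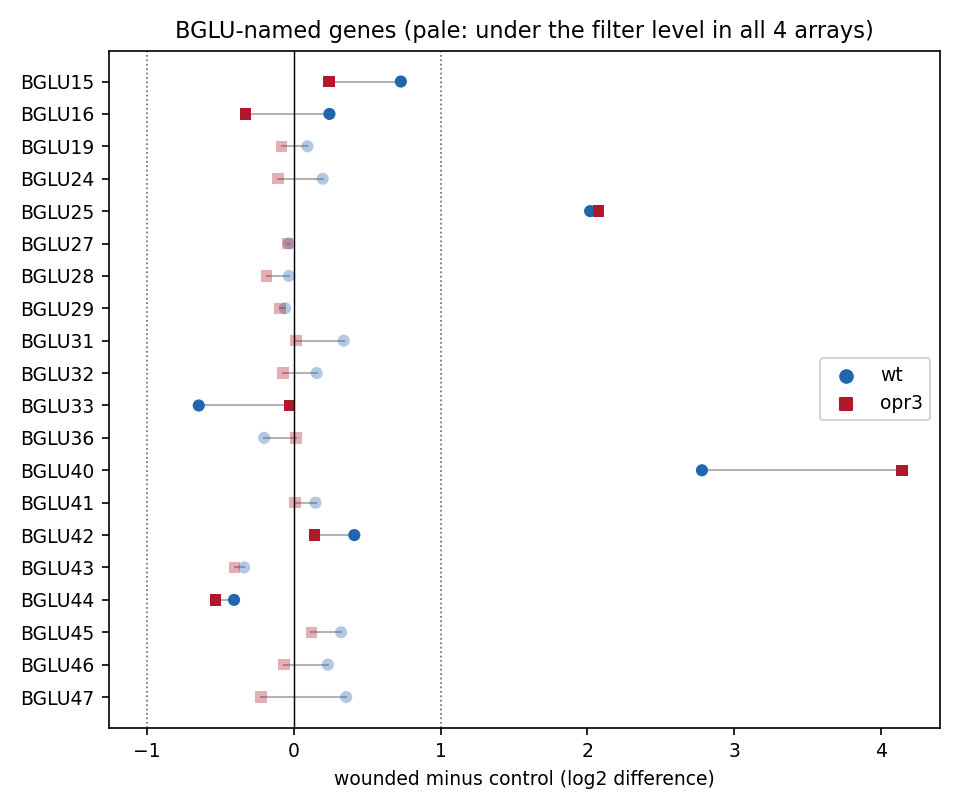
Wounded minus control log2 difference (horizontal axis) in wt (blue circles) and opr3 (red squares) for the 20 BGLU-named genes, pale where all 4 arrays lay under the filter level, with dotted lines at 2-fold. The 18 background genes lie between -0.65 and 0.73, and BGLU25 and BGLU40 between 2.02 and 4.14.

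Likeness to other genes was measured as the Euclidean distance between the 4 log2 values, each gene centred on its own mean over the 4 arrays, among 7984 named probe sets past the filter. The closest to BGLU25 was IQD23 at a distance of 0.21, a gene of the IQ-domain family, whose proteins bind calmodulin. Its log2 level was 5.11 in wt control, 6.90 in wt wounded, 5.01 in opr3 control and 7.22 in opr3 wounded. As for BGLU25, both wounded arrays were high and both control arrays low. AT5G12010 (distance 0.26), AT3G51660 (0.26), AT4G36010 (0.28) and AT3G49220 (0.29) followed. Over these 5 genes the wounding difference ran from 1.68 to 2.34 in wt and from 1.96 to about 2.48 in opr3. The upper end in opr3 is AT4G36010, whose control levels were both under 4.73. In all, 24 named probe sets lay within a distance of 0.5 of BGLU25.

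Fewer genes came close to BGLU40, with 2 named probe sets within 0.5 and 12 within 1. AT1G14780 was closest, at a distance of 0.43, with log2 levels of 4.86 in wt control, 7.64 in wt wounded, about 4.71 in opr3 control and 8.91 in opr3 wounded. AT5G47330 followed at 0.45. PRN, which encodes a pirin, was at a distance of 0.54, with levels of 4.80 in wt control, 7.93 in wt wounded, 4.98 in opr3 control and 8.89 in opr3 wounded. AT1G51090 was at 0.54 as well.

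The fifth was LTI30, a dehydrin gene of cold and drought responses, at a distance of 0.67. Its level was 5.27 in wt control, 8.80 in wt wounded, about 4.70 in opr3 control and 9.40 in opr3 wounded, which gives the same order of arrays as BGLU40. Like BGLU40, LTI30 was lower in opr3 control than in wt control, at -0.57, and higher in opr3 wounded than in wt wounded, at 0.60. AT1G14780 (-0.15 and 1.27), AT5G47330 (-0.15 and 0.81) and AT1G51090 (-0.40 and 0.40) shared this order, so it is not particular to LTI30. PRN was higher in opr3 in both treatments, at 0.19 and 0.95. Over the 5 genes the response in opr3 exceeded that in wt by 0.77 to 1.42. They were picked for closeness to BGLU40, so a larger response in opr3 follows from the choice. Control levels of AT1G14780, AT1G51090 and LTI30 fell under 4.73 in at least 1 array, so the sizes of their differences are approximate.

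The pattern of BGLU40 lay 1.56 from that of BGLU25. From BGLU25, 679 named probe sets were closer than BGLU40 was, and from BGLU40, 38 were closer than BGLU25. The nearest of the other BGLU genes was BGLU15 for both, at 1.60 from BGLU25 and 3.13 from BGLU40. A distance grows with the size of a gene's differences, so fewer close genes are to be had for BGLU40. These distances rest on 4 arrays and describe likeness of pattern only. The closest genes were picked by them, so features shared with BGLU25 or BGLU40 are no separate result.

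**Figure D4:**
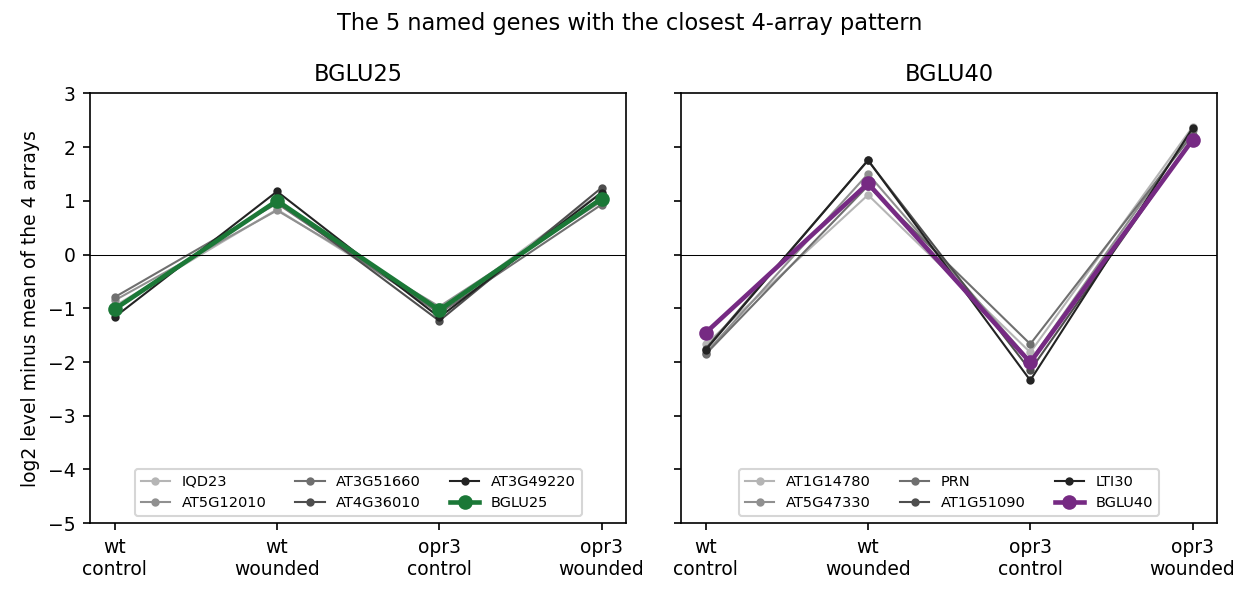
Log2 level minus the mean of the 4 arrays (vertical axis) in each array for BGLU25 and BGLU40 (coloured) and the 5 named genes closest to each (grey). The genes near BGLU25 have wounded levels of similar height in both lines, and those near BGLU40 are highest in opr3 wounded.

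Neighbouring genes on the chromosomes of BGLU25 and BGLU40 were looked up by gene order. Among the 5 protein-coding genes on each side, 5 named probe sets were found for BGLU25, of which 3 passed the filter, and 7 for BGLU40, of which 2 passed. None of these 5 was at least 2-fold higher or lower in any comparison. Of all probe sets, 3.94% were higher and 1.79% lower in the wt response, and 4.85% and 1.68% in the opr3 response. A count of 0 among 5 is near these shares, so nothing is read from it. The gene next to BGLU40, AT1G26550, was at 9.57 in wt control, 9.58 in wt wounded, 9.37 in opr3 control and 9.60 in opr3 wounded. Its wounding differences were 0.01 in wt and 0.23 in opr3. Near BGLU25, AT3G03610 had differences of 0.31 and 0.42. AT3G03680 and AT3G03590 were lower after wounding in both lines, at -0.52 and -0.16, and at -0.17 and -0.31.

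Genes that work with other beta-glucosidases showed mixed values. Of 25 genes listed for ER bodies and their glucosidase complex, 10 probe sets were named and 3 passed the filter. In wounded wt 2 of these 3 were at least 2-fold higher, against 3.94% of all probe sets, and 1 was in wounded opr3, against 4.85%. NAI1 passed the filter only through wounded wt, so these counts are a description. The medians of the 3 were 1.97 and -0.14, against -0.05 and -0.03 over all probe sets. NAI1, the transcription factor gene needed for ER bodies, had differences of about 0.65 in wt and about -0.23 in opr3, with the other 3 arrays under 4.73. The ER body genes NAI2 and PYK10 lay under the filter level in all 4 arrays, as did BGLU19, BGLU24 and ATA27 (BGLU20), all beta-glucosidase genes, and the lectin genes JAL22 and JAL33.

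JAL34, a jacalin-related lectin gene, was at 5.70 in wt control, 7.67 in wt wounded, 5.55 in opr3 control and 5.41 in opr3 wounded. Only wounded wt was high, with differences of 1.97 in wt and -0.14 in opr3. JAL23, of the same lectin family, was at 5.76 in wt control, 9.65 in wt wounded, about 4.03 in opr3 control and 6.07 in opr3 wounded. Its differences were 3.89 and about 2.05, with both opr3 levels below their wt counterparts. The difference of the responses, opr3 minus wt, was -2.11 for JAL34 and about -1.84 for JAL23. It was 1.36 for BGLU40 and 0.06 for BGLU25. Each of these values uses the wt wounded array, whose part was not tested.

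Of 25 listed jasmonate response genes only OPCL1 and JMT were named. OPCL1, a ligase acting on jasmonate precursors, had differences of 1.29 in wt and 0.67 in opr3, and JMT, the jasmonate methyltransferase, about 2.80 and about 1.07. Both were smaller in opr3, with a difference of responses of -0.62 for OPCL1 and about -1.74 for JMT. The wt wounded array enters these values as well. OPCL1 and JMT were both past the limit in wt, against 3.94% of all probe sets, and JMT was in opr3, against 4.85%. Their medians were 2.05 in wt and 0.87 in opr3, against -0.05 and -0.03 over all probe sets. JMT passed the filter only through wounded wt, so these counts and medians are a description. Its wt control level and both its opr3 levels were under 4.73, so its differences in both lines are approximate. Of 15 genes listed for abscisic acid and its glucose ester 3 were named and 2 passed the filter. Neither was past the limit in any comparison. With 3.94% and 4.85% of all probe sets at least 2-fold higher in the wt and opr3 responses, this is near the background. UGT71C5, which glucosylates abscisic acid, had differences of 0.70 in wt and 0.33 in opr3, and BGLU33 is described above. The medians of these 2 were 0.02 and 0.15. UGT71B6, another abscisic acid glucosyltransferase gene, stayed under the filter level. Of 16 genes listed for monolignol glucosides and cell wall glycosidases 6 were named, and UGT72E1, a monolignol glucosyltransferase gene, passed the filter alone, at 0.10 in both lines. None of the 18 genes listed for glucosinolate breakdown was named, so that group was not analysed here.

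**Figure D5:**
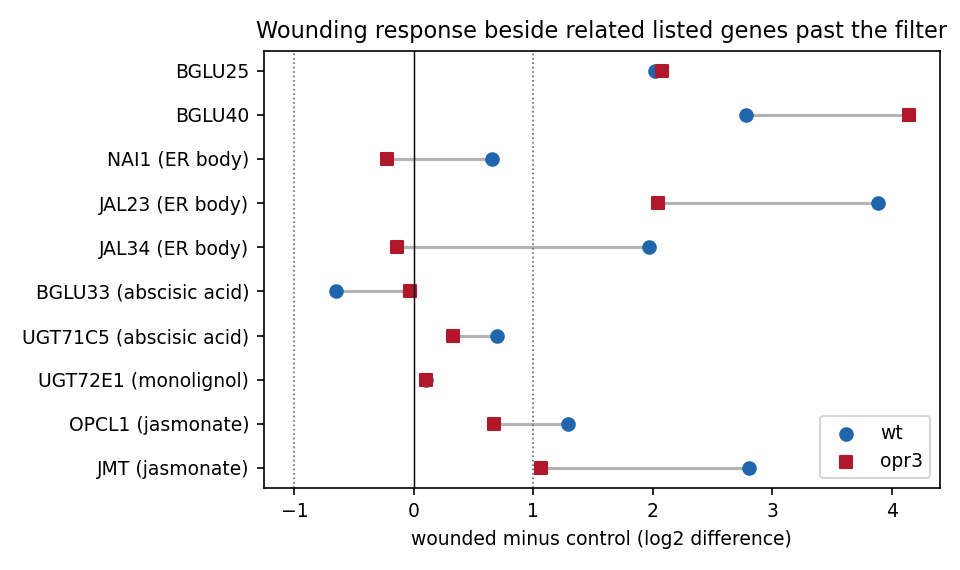
Wounded minus control log2 difference (horizontal axis) in wt (blue circles) and opr3 (red squares) for BGLU25, BGLU40 and the listed related genes that passed the filter, with the list in brackets and dotted lines at 2-fold. JAL34, JAL23, JMT and OPCL1 have larger differences in wt, BGLU40 has the larger one in opr3, and BGLU25 has 2.02 and 2.08.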

How the data were processed

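The table deposited by the authors holds 1 log2 value for each probe set and array. The submitters' processing notes name RMA, which corrects background, normalizes by quantiles and summarises probes, and Partek, with no versions. Because RMA compresses low signals, folds of weak transcripts come out too small. The authors' build and annotation are not given in the sources used here, and raw intensities were not analysed here. Gene names came from the platform annotation, updated through gene identifiers in the TAIR10.1 gene table: of 22810 probe sets, 64 were controls, 13513 had 1 gene (13436 matched), 503 several, and 8730 plant probe sets were not listed and are unnamed here.

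Differences are log2 values of 1 array minus another. With 1 array per group no test was computed, and the number of arrays limits the precision. The genes described, the lists and the alternatives were chosen with earlier results of these data known. Named were BGLU25 and BGLU40, the 3 largest and 3 smallest other BGLU differences per response, the 5 closest genes to each, and listed genes. BGLU36, BGLU45, BGLU46 and the neighbouring genes named were chosen after their values were seen. Alternatives were median centring (over all plant or named nuclear probe sets), quantile and cyclic loess normalization (limma 3.58.1, R 4.3.3), low values raised to the filter level, other filters and other fold limits. Steps ran in python 3.11.15 with pandas 2.3.3 and were tested on simulated data.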

Additional observations from a re-analysis of the deposited data

How the results depend on the processing

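The differences of BGLU25 and BGLU40 in the 5 comparisons were recomputed under 5 alternatives each, and all 50 values stayed within 0.1 on the log2 scale and on the same side of the 2-fold limit. The largest move was 0.08. Raising low values to the filter level could not change either gene, since the lowest level of the pair was 6.14. Quantile normalization repeats a step that RMA already includes. The BGLU40 response ranged from 2.77 to 2.85 in wt and from 4.08 to 4.19 in opr3, and its difference of responses from 1.29 to 1.36. The BGLU25 response ranged from 2.00 to 2.09 in wt and was at least 2.01 in opr3. The near-zero line differences of BGLU25 changed sign under some of them, between -0.04 and 0.06 in control plants and between -0.01 and 0.06 in the difference of responses. Counts of probe sets moved by over 1.5 times only with the fold limit itself, by construction. At 1.5-fold and 3-fold the counts of higher probe sets were 1216 and 251 after wounding in wt, 1649 and 279 after wounding in opr3, 243 and 11 for opr3 against wt in control plants, 717 and 45 in wounded plants, and 1114 and 92 for the difference of responses. Those of lower probe sets were 1243 and 43, 1124 and 36, 332 and 25, 550 and 122, and 622 and 75, in the same order. These counts are of 14612 probe sets. At 1.5-fold, 3 BGLU genes were higher in wounded wt, BGLU15 being the addition to BGLU25 and BGLU40, and 1 was lower. In opr3 against wt in wounded plants 1 was higher and 1 lower, and 2 were higher in the difference of responses. BGLU25 and BGLU40 were selected on these responses, and BGLU15 passed the filter only through wounded wt, so nothing is read from the BGLU counts. Of the 5 genes closest to BGLU25, 4 were the same under quantile and loess normalization and with the largest absolute deviation as the measure, and all 5 under median centring. For BGLU40 all 5 were the same under these 4 alternatives, which were chosen after seeing the data. No paired analysis was possible because each group has 1 array, and for the same reason no replicate could be left out.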

Other observations

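One further probe set, 260130_s_at, names both BGLU21 and BGLU22 and was kept out of the comparisons because it cannot be assigned to either. It lay under the filter level in all 4 arrays, at 3.76 in wt control, 3.75 in wt wounded, 3.89 in opr3 control and 3.57 in opr3 wounded.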
